A study of Mus musculus with 9 samples.

Results

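The 9 genes described here encode proteases that open the matrix and wall of the ovulating follicle, and their inhibitors. They were chosen by name: the ADAMTS proteases Adamts1, Adamts4, Adamts5 and Adamts9, the plasminogen activators Plat and Plau, the serpin Serpine2, and the tissue inhibitors of metalloproteinases Timp1 and Timp3. All 9 are among the 54838 mouse genes of the deposited matrix. RNA was sequenced from corona radiata cells, the innermost cumulus granulosa cells around the oocyte, of adult mice given PMSG and then hCG, gonadotropins that drive follicle growth and then ovulation. The labels call the cells granulosa samples taken after induction and add the term J4, which they do not explain. The 9 libraries stand for 3 genotypes, 3 libraries each. Wild type (WT) libraries carried no modification named in the labels. Libraries labelled DKO LXR (LXR DKO here) came from mice lacking both liver X receptors, nuclear receptors that bind oxysterols. Libraries labelled DKO LXR TG-AMH-LXRb (transgenic here) carried the same double knockout and a transgene of that name, so that every transgenic library was also LXR DKO. The labels do not describe the transgene's promoter, the deleted parts or the strain. They do not say whether each library was a separate animal either, and the p-values then measure only the spread between these libraries, which may be technical.

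As background, ovulation requires proteolysis of both the cumulus matrix and the follicle wall. ADAMTS proteases are secreted zinc enzymes that cut the proteoglycans versican and aggrecan, and ADAMTS1 is induced in granulosa cells by the ovulatory surge and needed for normal ovulation in mice. Plasminogen activators cut plasminogen to the broad protease plasmin, and the serpin protease nexin 1, the product of Serpine2, inhibits them. TIMP1 inhibits matrix metalloproteinases, and TIMP3, which is bound in the matrix, also inhibits several ADAMTS enzymes.

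Values are RPKM, reads per kilobase of exon scaled to library size. Differences are log2 fold changes ± standard error (SE) on the log2(RPKM + 1) scale, with limma p-values adjusted by Benjamini-Hochberg over the 16422 genes that had at least 1 RPKM in at least 3 libraries and a threshold of 0.05. Adamts5 stayed below that filter, which left 8 members tested. Reads worked back for 98.1% of the genes above 0 numbered 29822412 to 44049966 per library. Among the targeted genes, Nr1h2 (LXR beta) was at 39.7 to 45.7 RPKM for WT, at 2.85 to 3.57 RPKM in LXR DKO and at 4.83 to 6.70 RPKM in transgenic libraries. Nr1h3 (LXR alpha) was at 3.50 to 5.72 RPKM, 0.713 to 1.08 RPKM and 0.395 to 0.819 RPKM in the same order. The granulosa genes Inha (150 to 307 RPKM), Amhr2 (13.3 to 30.7 RPKM) and Foxl2 (3.33 to 7.14 RPKM) were present in every library. Of the 8 theca and interstitial markers, Cyp11a1, which granulosa cells also express after the ovulatory surge, was at 1463 to 1860 RPKM, while Cyp17a1, Insl3 and Dcn were at most 0.119, 0.115 and 5.04 RPKM. Several libraries also held RNA of other cells. The 13 oocyte markers summed to 961 RPKM for WT 1 and to 492 RPKM for LXR DKO 1, against 1.40 to 54.1 RPKM elsewhere. The 10 oviduct epithelium markers summed to 2143 RPKM in WT 3 and to 1929 to 2518 RPKM in the transgenic libraries, against 452 to 1172 RPKM elsewhere. The erythroid markers summed to 9881 RPKM in WT 3, against at most 970 RPKM elsewhere (969.6 in LXR DKO 2). Leaving out WT 1 and LXR DKO 1, the libraries rich in oocyte markers, is a setting chosen after seeing the data.

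Adamts1 had the largest log2 difference from WT of the 8 members tested. It was higher in both groups on the double knockout background than in WT, in every library, and it was the 1 member of 8 (12.5%) past the threshold in LXR DKO against WT, where 10.6% of all genes tested passed (3.47% higher and 7.12% lower). In transgenic against WT, Adamts1 was higher and Serpine2 lower, so 2 of 8 members passed beside 11.9% of all genes (5.15% higher and 6.72% lower). Between transgenic and LXR DKO, 0 of 8 members passed in limma, or with voom weights on reads, where 0.116% of all genes did (0.0548% higher and 0.0609% lower). At an unadjusted p under 0.05 there were 2, Adamts4 and Serpine2. These shares lie near the background or rest on 1 or 2 genes, and say nothing of the members as a set. The median log2 fold change of the 8 members was 0.059 in LXR DKO against WT, -0.025 in transgenic against LXR DKO and 0.24 in transgenic against WT, beside 0.017, 0.013 and 0.015 over all genes tested. The first and last comparisons share the WT libraries.

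**Figure D1:**
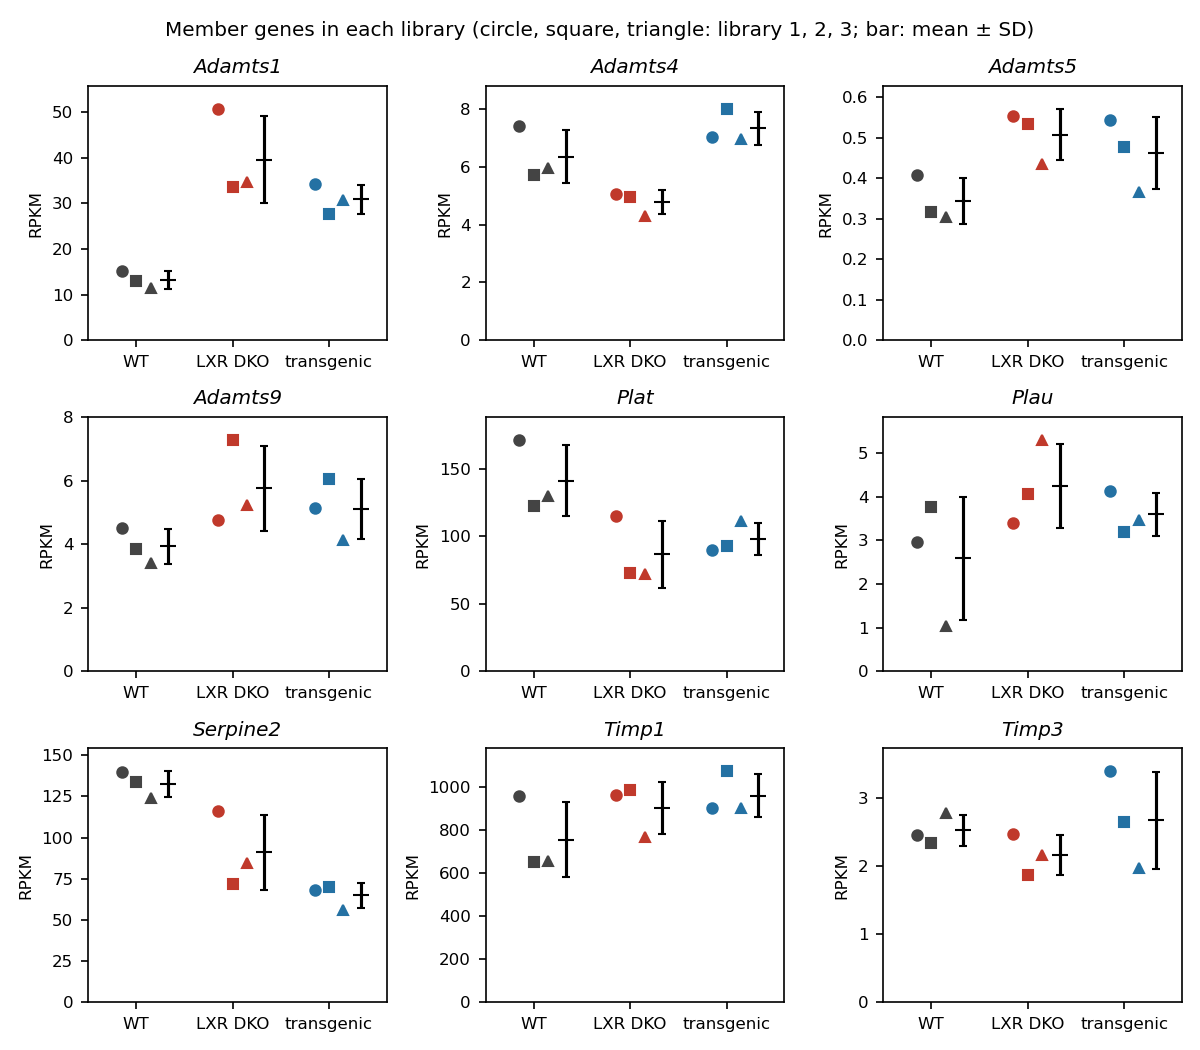
RPKM (y axis, linear from 0) of the 9 genes in the 3 WT, 3 LXR DKO and 3 transgenic libraries, 1 point per library with the mean ± SD beside each group. Adamts1 lies between 11.4 and 15.2 RPKM in WT and at 27.7 RPKM or above in the other 6 libraries, and Serpine2 lies at 70.2 RPKM or below in the transgenic libraries and at 124 RPKM or above in WT.

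Adamts1 (ENSMUSG00000022893, mm10 chromosome 16, 85793827 to 85803113 in GENCODE M21, as for the genes below, minus strand) encodes the versican-cutting protease of the cumulus and granulosa layers. It stood at 15.2, 13.0 and 11.4 RPKM across WT 1 to 3, 50.6, 33.5 and 34.6 across LXR DKO 1 to 3 and 34.2, 27.7 and 30.6 across transgenic 1 to 3. No library of either knockout-background group overlapped a WT library, and the highest value was that of LXR DKO 1. The mean rose from 13.2 ± 1.91 RPKM in WT to 39.6 ± 9.57 RPKM in LXR DKO (SD, n = 3), 3.00 times as much (log2 fold change 1.50 ± 0.17, limma adjusted p = 0.00152). In transgenic libraries the mean was 30.8 ± 3.23 RPKM, 2.34 times the WT mean (1.17 ± 0.17, limma adjusted p = 0.00504). Both calls held in all 18 alternative settings and omissions, with log2 fold changes of 1.31 to 1.60 in LXR DKO and 1.08 to 1.27 in transgenic libraries. The difference between transgenic and LXR DKO did not pass (-0.33 ± 0.17, limma adjusted p = 0.678, unadjusted 95% interval -0.71 to 0.053), and transgenic 1 lay within the LXR DKO range. Each value rests on 2543 to 11248 reads.

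Because Adamts1 and Serpine2 were the members that passed, the 250 bases before their RefSeq start sites are shown, on GRCm38.p6, 5′ to 3′ on the gene's own minus strand, Adamts1 at chr16:85803114-85803363 and Serpine2 at chr1:79858666-79858915. Capitals mark GGGCGG, the box bound by SP1. The start used for Serpine2 lies inside the GENCODE span of the gene.
Adamts1: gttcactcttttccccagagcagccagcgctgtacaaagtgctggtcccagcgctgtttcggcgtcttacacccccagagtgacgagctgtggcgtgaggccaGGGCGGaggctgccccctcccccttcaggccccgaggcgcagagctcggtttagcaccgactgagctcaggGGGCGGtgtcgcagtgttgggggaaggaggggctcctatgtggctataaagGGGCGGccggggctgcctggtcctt
Serpine2: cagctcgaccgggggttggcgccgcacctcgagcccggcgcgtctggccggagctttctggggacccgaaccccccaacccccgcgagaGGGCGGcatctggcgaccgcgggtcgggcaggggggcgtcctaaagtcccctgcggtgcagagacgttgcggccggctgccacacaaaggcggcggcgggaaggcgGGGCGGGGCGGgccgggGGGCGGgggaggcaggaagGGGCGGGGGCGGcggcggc
The Adamts1 stretch held 3 GGGCGG boxes and the Serpine2 stretch 6, of which 1 pair shares its end bases. On both strands, 35.66% of the 32851 RefSeq promoter windows (250 bases before to 50 after a start) held at least 1. Of the 9 members, 5 had a window in the table, and those of Adamts9, Timp1 and Timp3 held 1, 1 and 2 boxes. None of the 5 windows held the AP-1 site TGANTCA (7.81% of all windows), the RUNX core TGTGGT (16.76%), the cAMP response element TGACGTCA (1.79%), the SF-1 and LRH-1 site CAAGGTCA (1.56%), the progesterone element AGAACA and TGTTCT with 3 bases between (0.009%), or an LXR element, AGGTCA followed by AGGTCA with 4 bases between (0.015%) or AGGTTA followed by AGGTCA with 4 bases between (0.018%). These are matches of letters in a short window, not measured binding.

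Adamts5 (ENSMUSG00000022894, chromosome 16, 85856173 to 85901828, minus strand) encodes an aggrecan-cutting protease and is the neighbour of Adamts1, 53059 bases away with 0 protein-coding genes between them. Its level was 0.408, 0.318 and 0.305 RPKM across WT 1 to 3, 0.552, 0.534 and 0.435 across LXR DKO 1 to 3 and 0.544, 0.477 and 0.366 across transgenic 1 to 3, or 127 to 272 reads. The LXR DKO values lay above those of WT without overlap, but the difference did not pass when genes were tested with no filter on low values (0.17 ± 0.07, limma adjusted p = 0.35), nor did that of transgenic against WT (0.12 ± 0.07, limma adjusted p = 0.48). Adamts5 thus stayed under 0.6 RPKM throughout while its neighbour reached 50.6 RPKM.

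Adamts4 (ENSMUSG00000006403, chromosome 1, 171250421 to 171260637, plus strand), another aggrecanase, was the member whose transgenic values differed most from LXR DKO relative to their spread. It stood at 7.39, 5.69 and 5.96 RPKM across WT 1 to 3, 5.07, 4.95 and 4.31 across LXR DKO 1 to 3 and 7.04, 7.99 and 6.95 across transgenic 1 to 3. LXR DKO lay below both other groups in every library, while WT and transgenic overlapped. Neither difference passed over all genes: LXR DKO against WT was -0.34 ± 0.11 (4.77 ± 0.409 against 6.35 ± 0.912 RPKM, limma adjusted p = 0.0904), and transgenic against LXR DKO was 0.53 ± 0.11 (7.33 ± 0.572 RPKM, unadjusted p = 0.00123, limma adjusted p = 0.196).

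Adamts9 (ENSMUSG00000030022, chromosome 6, 92772699 to 92943492, minus strand) encodes a long, widely expressed versican-cutting family member. It stood at 4.52, 3.86 and 3.42 RPKM across WT 1 to 3, 4.75, 7.27 and 5.23 across LXR DKO 1 to 3 and 5.14, 6.04 and 4.14 across transgenic 1 to 3. The LXR DKO values did not overlap those of WT, and LXR DKO 2 was the highest. The difference did not pass (0.44 ± 0.17, limma adjusted p = 0.139), nor did that of transgenic against WT (0.30 ± 0.17, adjusted p = 0.266, limma). Adamts9 shares 1381 exon bases with A730049H05Rik on the opposite strand, which measured 0.188 to 1.34 RPKM, and the strand setting of the counting is not given in the sources used here. In all 3 groups Adamts1 was the most abundant of the 4 ADAMTS members. It took a share of 54.1 to 56.7% of their summed RPKM in WT, of 72.4 to 83.0% in LXR DKO and of 65.7 to 72.9% in transgenic libraries. The mean sum was 23.8 ± 3.33 RPKM for WT, 50.6 ± 9.02 for LXR DKO and 43.7 ± 2.74 for transgenic libraries (SD, n = 3), with no overlap between WT and either other group (exact two-sided permutation p = 0.1 for each, the smallest that 3 against 3 allow).

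Plat (ENSMUSG00000031538, chromosome 8, 22757727 to 22782844, plus strand) encodes tissue-type plasminogen activator, which granulosa and cumulus cells secrete around ovulation. It stood at 171, 122 and 130.0 RPKM across WT 1 to 3, 115, 72.6 and 72.1 across LXR DKO 1 to 3 and 90.0, 92.4 and 111 across transgenic 1 to 3. Every WT value lay above every value of the other groups. The WT mean was 141 ± 26.3 RPKM and the LXR DKO mean 86.5 ± 24.5 RPKM, a difference just short of the threshold (-0.72 ± 0.20, limma adjusted p = 0.054). In transgenic libraries the mean was 98.0 ± 11.7 RPKM (-0.51 ± 0.20 against WT, limma adjusted p = 0.126). The highest value of WT and of LXR DKO was that of the library rich in oocyte markers, WT 1 and LXR DKO 1, as it was for Adamts1, Adamts4, Adamts5 and Serpine2. The part of these markers was not tested. Without those 2 libraries Plat passed in LXR DKO against WT (-0.79, limma adjusted p = 0.0194), and without LXR DKO 1 alone it did so too (-0.94, adjusted p = 0.0117). It also passed with the stricter filter of 5 RPKM, under which fewer genes were tested (adjusted p = 0.0429, limma). Across its 18 alternatives the adjusted p ranged from 0.0117 to 0.183.

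Plau (ENSMUSG00000021822, chromosome 14, 20836660 to 20843385, plus strand) encodes urokinase-type plasminogen activator and was far scarcer than Plat. It stood at 2.96, 3.77 and 1.03 RPKM across WT 1 to 3, 3.38, 4.07 and 5.29 across LXR DKO 1 to 3 and 4.13, 3.18 and 3.46 across transgenic 1 to 3. WT 3 stood alone at the low end, with 115 reads against 234 to 453 in the others, and the groups overlapped. The difference of LXR DKO from WT was 0.62 ± 0.29 (limma adjusted p = 0.211) and was 0.26 without WT 3. WT 3 was also the library with the highest smooth muscle score (3.13, mean log2(RPKM + 1) of 6 markers) and the highest WT oviduct epithelium score (5.61). LXR DKO 2 and transgenic 1 had similar smooth muscle scores (3.10 and 2.95), with Plau at 4.07 and 4.13 RPKM. Transgenic 1 and 3 had similar oviduct epithelium scores (5.54 and 5.70), with Plau at 4.13 and 3.46 RPKM. The erythroid markers summed to 9881 RPKM in WT 3, against at most 970 RPKM elsewhere. Whether these contents bear on Plau was not tested.

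Serpine2 (ENSMUSG00000026249, chromosome 1, 79794197 to 79861180, minus strand), the protease nexin 1 gene, is the member whose product inhibits plasminogen activators. It stood at 139.7, 134 and 124 RPKM across WT 1 to 3, 116, 71.9 and 84.8 across LXR DKO 1 to 3 and 68.2, 70.2 and 56.4 across transgenic 1 to 3. The 3 genotypes did not overlap, with WT highest and transgenic lowest. The mean fell from 132 ± 7.89 RPKM in WT to 64.9 ± 7.49 RPKM in transgenic libraries, 0.49 of the WT mean (-1.02 ± 0.17, limma adjusted p = 0.00843), a call that held in all 18 alternatives (-1.08 to -0.93). LXR DKO, at 91.1 ± 22.9 RPKM, differed from WT by -0.56 ± 0.17 (limma adjusted p = 0.0653) and from transgenic with an adjusted p = 0.514 in limma (transgenic minus LXR DKO -0.46 ± 0.17, unadjusted p = 0.0225). LXR DKO 1 was the high library of its group. Without it the difference of LXR DKO from WT was -0.75 and passed (limma adjusted p = 0.0107), as it did without both oocyte-rich libraries (-0.71, adjusted p = 0.0351). Serpine2, and with it Plat, brought the members past the threshold in LXR DKO against WT from 1 to 3 in each of these 2 omissions. In bulk RNA, fewer cells of a type and less RNA per cell cannot be told apart. Of 11 granulosa and cumulus markers tested, 5 fell both in LXR DKO and in transgenic libraries against WT, with 0 rising. The 5 were Tnfaip6, Ptx3, Inhba, Hsd17b1 and Fst. The other 6 did not pass, among them Inha (-0.61 and -0.59), Foxl2 (-0.50 and -0.56), Fshr (0.23 and 0.19) and Amhr2 (-0.35 and -0.00053). Log2 fold changes were positive for 2 of the 11 in each comparison with WT. Their medians were -0.61 in LXR DKO and -0.59 in transgenic libraries, beside 0.017 and 0.015 over all genes tested. Between transgenic and LXR DKO 0 of 11 passed. Their summed level was 1153 to 1373 RPKM for WT, 590.3 to 853 RPKM for LXR DKO and 634 to 798 RPKM for transgenic libraries, and none was at 0. Tnfaip6 alone averaged 388, 103 and 135 RPKM in the same order. Tnfaip6 and Ptx3 are counted again below among the matrix genes, so the sum is not separate from that result. The part of the granulosa and cumulus markers in the values of Serpine2 and Plat was not tested.

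Timp1 (ENSMUSG00000001131, chromosome X, 20870166 to 20874735, plus strand) was the most abundant member by more than 5 times in every group, and its mean RPKM over the 9 libraries ranked 25 of the 16422 genes tested. It stood at 957, 652 and 655 RPKM across WT 1 to 3, 961, 984 and 765 across LXR DKO 1 to 3 and 901, 1073 and 903 across transgenic 1 to 3. WT 1 lay within the range of the other groups, above WT 2 and WT 3. None of the differences passed: LXR DKO minus WT was 0.27 ± 0.18 (limma adjusted p = 0.371) and transgenic minus WT was 0.36 ± 0.18 (limma adjusted p = 0.201, unadjusted 95% interval -0.038 to 0.77). WT 1 is one of the libraries rich in oocyte markers. Without both of these, transgenic minus WT was 0.55 and still did not pass.

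Timp3 (ENSMUSG00000020044, chromosome 10, 86300372 to 86349506, plus strand) was scarce and similar in level across the groups. It stood at 2.46, 2.34 and 2.78 RPKM across WT 1 to 3, 2.47, 1.88 and 2.16 across LXR DKO 1 to 3 and 3.39, 2.65 and 1.97 across transgenic 1 to 3, and all 3 groups overlapped. The unadjusted 95% intervals of its differences were -0.50 to 0.19 for LXR DKO minus WT, -0.15 to 0.55 for transgenic minus LXR DKO and -0.30 to 0.39 for transgenic minus WT. Timp3 lies inside the span of Syn3 on the opposite strand and shares 1733 exon bases with it, but Syn3 was at most 0.0624 RPKM.

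**Figure D2:**
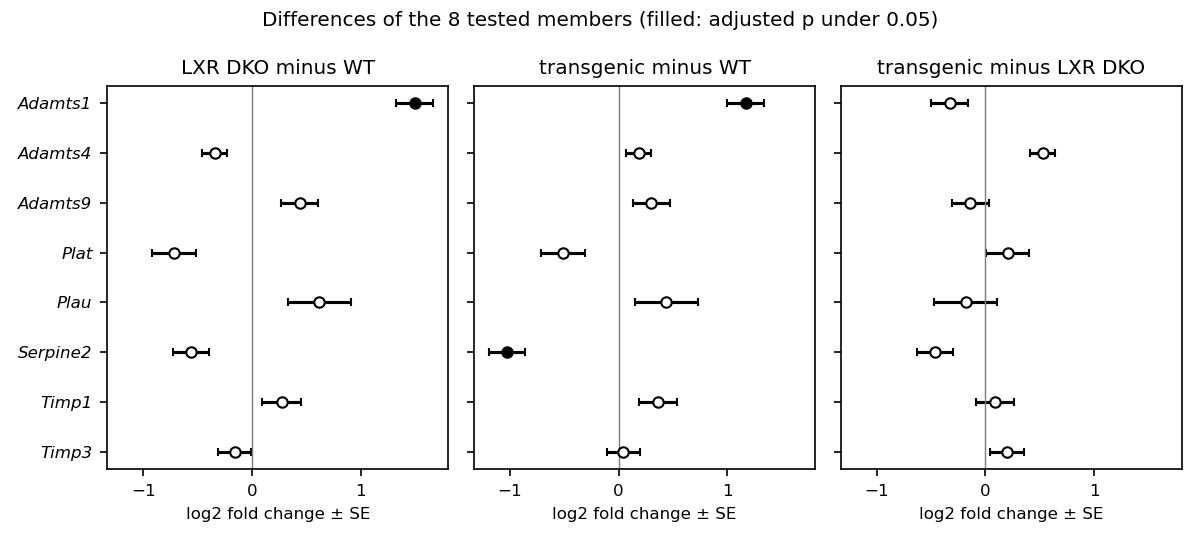
Log2 fold change ± SE (x axis) of the 8 tested members in LXR DKO minus WT, transgenic minus WT and transgenic minus LXR DKO, filled where the limma adjusted p is under 0.05. Adamts1 is filled and to the right in both comparisons with WT, Serpine2 is filled and to the left in transgenic minus WT only, and no member is filled in transgenic minus LXR DKO.

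The order of the members' RPKM levels was alike at its ends and differed in the middle. Timp1 was highest and Adamts5 lowest in every group, and neither overlapped its neighbour in that order. Plat and Serpine2 came next and overlapped in WT (122 to 171 and 124 to 139.7 RPKM) and in LXR DKO, but not in transgenic libraries, where Plat at 90.0 to 111 RPKM exceeded Serpine2 at 56.4 to 70.2 RPKM. Adamts1 followed in each group, without overlap on either side. Adamts4 exceeded Adamts9 without overlap in WT and transgenic libraries, and the 2 overlapped in LXR DKO. Plau and Timp3 were near each other and overlapped in WT and transgenic libraries but not in LXR DKO.

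Ratios within a library remove its scaling and show how the levels of 2 members or groups of members stood to each other. Plat over Serpine2 was 1.23, 0.912 and 1.05 across WT 1 to 3, 0.986, 1.01 and 0.85 across LXR DKO 1 to 3 and 1.32, 1.32 and 1.98 across transgenic 1 to 3, so all transgenic values exceeded those of both other groups. The means were 1.06 ± 0.157, 0.949 ± 0.0862 and 1.54 ± 0.381 (SD, n = 3), with transgenic 3 the highest. Timp1 over the summed ADAMTS members was 34.7, 28.6 and 31.1 across WT 1 to 3, 15.8, 21.3 and 17.2 across LXR DKO 1 to 3 and 19.2, 25.4 and 21.5 across transgenic 1 to 3. The WT values lay above all others, at 31.5 ± 3.11 on average against 18.1 ± 2.87 and 22.0 ± 3.13. Adamts4 over Adamts9 averaged 1.62 ± 0.135 for WT, 0.857 ± 0.196 for LXR DKO and 1.46 ± 0.195 for transgenic libraries, with LXR DKO below both other groups in every library. For each pair of groups that did not overlap the exact two-sided permutation p = 0.1, the smallest possible with 3 against 3, so none of the 15 comparisons of ratios and sums could pass 0.05. The ratios were chosen after the values had been seen.

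**Figure D3:**
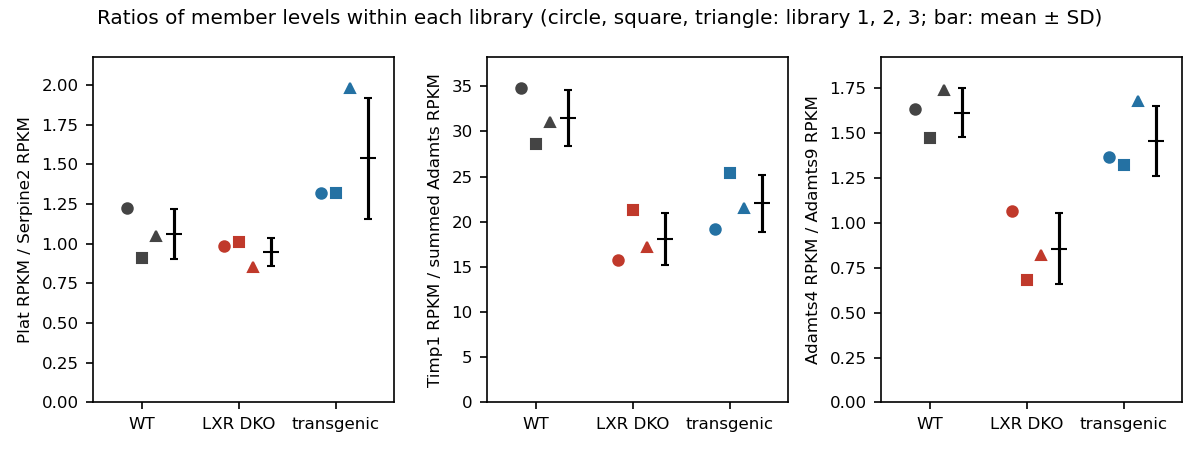
Ratios of RPKM values within each of the 9 libraries (y axes, linear from 0), with the mean ± SD beside each group. Plat over Serpine2 is highest in the 3 transgenic libraries (1.32 to 1.98), Timp1 over the 4 ADAMTS members is highest in the 3 WT libraries (28.6 to 34.7), and Adamts4 over Adamts9 is lowest in the 3 LXR DKO libraries.

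The members were set beside other genes of matrix proteolysis, its substrates and its regulators from 7 lists, which held 122 further genes, 84 of them tested. In LXR DKO against WT 8 rose, 10 fell and 66 did not pass (21.4% called, beside 10.6% of all genes). In transgenic against WT 7 rose and 13 fell (23.8%, beside 11.9%), and in transgenic against LXR DKO 1 fell and 0 rose, with 11 at an unadjusted p under 0.05. The lists were chosen with earlier results of these data known, so these shares do not show an enrichment. The LXR DKO calls include the regulator genes Fos, Jun, Junb and Jund and the matrix genes Tnfaip6, Ptx3 and Fn1. The counts depended on single libraries. In LXR DKO against WT they ran from 1 rising and 5 falling without LXR DKO 3, where 3.72% of all genes passed, to 11 and 13 without WT 3, where 12.8% did. In transgenic against WT they ran from 0 and 4 without transgenic 3, where 3.95% of all genes passed, to 10 and 19 without WT 3, where 21.2% did.

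The list of matrix metalloproteinases, zinc enzymes that cut collagens, had 10 genes tested, among them Bsg, which is not a protease gene. Of the 10, 3 fell, 1 rose and 6 did not pass in LXR DKO against WT (median -0.19, beside 0.017 over all genes). Mmp14, the membrane-type enzyme that activates pro-MMP2, fell from 48.5 ± 7.25 RPKM in WT to 24.6 ± 1.24 RPKM in LXR DKO (-0.94 ± 0.12, limma adjusted p = 0.00286) and 27.3 ± 2.74 RPKM in transgenic libraries (-0.80 ± 0.12, limma adjusted p = 0.00599). Mmp2 itself, a gelatinase gene, stood at 32.4, 31.2 and 24.8 RPKM across WT 1 to 3 and at 13.5, 13.2 and 15.7 RPKM across LXR DKO 1 to 3 (-1.0 ± 0.15, limma adjusted p = 0.00569), without overlap. Its transgenic values of 27.6, 18.8 and 22.5 RPKM overlapped WT and lay above all of LXR DKO. Transgenic minus LXR DKO did not pass for Mmp2 (0.65 ± 0.15, limma adjusted p = 0.228), nor did transgenic minus WT (-0.35 ± 0.15, limma adjusted p = 0.156). The calls of Mmp14 in both comparisons with WT and of Mmp2 in LXR DKO held in every alternative. Mmp11 fell (-0.67, limma adjusted p = 0.0364) and Mmp19 rose (0.68, adjusted p = 0.0405) in LXR DKO, but the first call was lost without any 1 library except LXR DKO 1 and the second without any 1 except WT 1. In transgenic against WT 1 of 10 rose and 1 fell, Mmp14 being the latter. Mmp8, a neutrophil collagenase gene, rose (2.34 ± 0.59, limma adjusted p = 0.0376), and lost that call on omission of any 1 library except WT 3 and LXR DKO 1. Mmp8 stood at 0.159, 0.111 and 3.86 RPKM across WT 1 to 3. It was at 1.39 to 5.26 RPKM in LXR DKO and at 6.18 to 11.1 RPKM in transgenic libraries. The 6 neutrophil markers other than Mmp8 gave sums of 1.09 to 4.67 RPKM for WT, 3.29 to 15.3 RPKM for LXR DKO and 1.28 to 2.35 RPKM for transgenic libraries. The oviduct epithelium markers summed to 2143 RPKM in WT 3 and to 1929 to 2518 RPKM in transgenic libraries, against 452 to 1172 RPKM elsewhere. The part of either marker list in Mmp8 was not tested.

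Of 6 tested metalloproteinase inhibitors, Timp1 and Timp3 included, 2 rose in LXR DKO and 0 fell (median 0.38). A2m, which encodes the broad protease trap alpha-2-macroglobulin, rose from 2.53 ± 0.548 to 19.5 ± 4.55 RPKM in LXR DKO (2.52 ± 0.18, limma adjusted p = 0.000125) and measured 3.94 ± 0.142 RPKM in transgenic libraries. It was the 1 gene of the 7 lists that passed in transgenic minus LXR DKO (-2.03 ± 0.18, limma adjusted p = 0.00416, but 0.0508 without LXR DKO 3). Reck, a membrane-anchored inhibitor gene, rose in LXR DKO (0.48 ± 0.12, limma adjusted p = 0.0379) and in transgenic libraries (0.46 ± 0.12, limma adjusted p = 0.0428). Its calls were lost in 13 and 12 of 17 alternatives, the first without any 1 library except LXR DKO 2 and the second without any 1 except LXR DKO 1 and LXR DKO 2. Timp2, an abundant inhibitor gene, measured 31.7 ± 8.2, 33.4 ± 2.65 and 32.2 ± 0.39 RPKM in WT, LXR DKO and transgenic libraries.

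The plasminogen list had 12 genes tested, Plat, Plau and Serpine2 included. Of these, 1 rose and 1 fell in LXR DKO, and neither was a member. Serpinb9, an intracellular granzyme inhibitor gene, rose (0.83 ± 0.23, limma adjusted p = 0.0499) and S100a10, a cell surface plasminogen receptor gene, fell (-0.37 ± 0.09, limma adjusted p = 0.0395). The former call was lost without any 1 library except WT 2 and LXR DKO 1, and the latter without any 1 except WT 3, LXR DKO 1 and transgenic 2. In transgenic against WT, 2 of 12 fell and 0 rose, Serpine2 and S100a10 (-0.44 ± 0.09, limma adjusted p = 0.0228, lost without WT 1, WT 2, transgenic 2 or transgenic 3). Plasminogen itself (Plg) was at most 0.00805 RPKM and below the filter. Of the 8 genes tested in the ADAMTS list, Adamts1 was the 1 that passed in either comparison with WT. Without WT 3, Adamts2, a procollagen-processing protease gene, passed too in transgenic against WT (-0.49 ± 0.12, limma adjusted p = 0.0231).

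Among 21 tested genes of cathepsins and other ovulatory proteases, with the cathepsin inhibitor genes Cst3 and Cstb, 3 rose and 0 fell in LXR DKO. Ctsl, the lysosomal cathepsin L gene that ovulating granulosa cells induce, rose from 133 ± 14.7 to 196 ± 10.5 RPKM (0.56 ± 0.11, limma adjusted p = 0.0157, 0.0635 without LXR DKO 3). The secreted serine protease genes Prss35 (1.14 ± 0.27, limma adjusted p = 0.0335) and Prss23 (0.93 ± 0.22, adjusted p = 0.0309) rose too. The call of Prss35 was lost without WT 1, transgenic 1 or any LXR DKO library, and that of Prss23 without any 1 library except WT 2 and LXR DKO 1. In transgenic against WT 3 of 21 rose and 3 fell, the inhibitor gene Cst3 among the latter (-0.39, limma adjusted p = 0.0144). Ctsk and Ctss, cathepsin genes of macrophages and osteoclasts among other cells, fell by 2.23 and 1.42 on the log2 scale (limma adjusted p = 0.0321 and 0.028). Prss35 (1.07, limma adjusted p = 0.0402) and Adam8 (1.56, adjusted p = 0.0377) rose. The calls of Cst3, Ctsk, Ctss, Prss35 and Adam8 were lost without WT 2 or a transgenic library. The exceptions were that Prss35 kept its call without WT 2 and Adam8 without transgenic 2. Ctsk, Adam8 and Prss35 were lost without WT 1 as well, Adam8 also without LXR DKO 2 and Prss35 without any 1 LXR DKO library. Of the 10 macrophage markers, 4 fell in transgenic against WT and 0 rose. They gave sums of 507 to 1219 RPKM for WT, 621 to 1132 RPKM for LXR DKO and 372 to 522 RPKM for transgenic libraries, with none at 0. Ctss was highest in WT 3 (125 RPKM) and LXR DKO 2 (89.6 RPKM), the libraries with the highest sums of their groups. Ctsk was lowest of its group in both (25.4 and 16.5 RPKM). Most of the LXR DKO 2 sum was 1 gene, Lyz2 (896 RPKM). By mean log2(RPKM + 1) of the 10 markers, LXR DKO 3 was the highest of its group (4.63, against 4.38 in LXR DKO 2). Of the 10 oviduct epithelium markers, 2 (Cdh1 and Dnah5) rose and 0 fell in transgenic against WT (median 1.39), and Adam8 was at 10.4 to 25.6 RPKM in transgenic libraries, above the other 6. The part of these markers was not tested.

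Of 17 tested substrates and partners of these proteases in the matrix, 1 rose and 2 fell in LXR DKO, and 2 rose and 4 fell in transgenic libraries against WT. Tnfaip6, which encodes the protein that links hyaluronan to heavy chains in the expanding cumulus, fell in both (-1.89 ± 0.17, limma adjusted p = 0.000396, and -1.52 ± 0.17, limma adjusted p = 0.00134) and in every alternative. Ptx3, a pentraxin gene of the same matrix, fell by 0.91 and 0.95 on the log2 scale (limma adjusted p = 0.0356 and 0.0298), and Fn1, the fibronectin gene, rose by 1.28 and 1.35 (limma adjusted p = 0.0356 and 0.0291). In LXR DKO the call of Ptx3 was lost without WT 1, WT 2, transgenic 1 or any LXR DKO library, and that of Fn1 without any 1 library except LXR DKO 1 and transgenic 3. In transgenic libraries Ptx3 was lost without WT 1, WT 2, transgenic 1 or transgenic 3, and Fn1 without WT 1, WT 2 or any transgenic library. Hapln1, a hyaluronan link protein gene, fell in transgenic libraries (-0.81 ± 0.19, limma adjusted p = 0.0324), and lost that call on omission of WT 1, WT 2 or any transgenic library. Vcan, which encodes versican, the substrate of ADAMTS1, stood at 40.4, 49.8 and 19.5 RPKM across WT 1 to 3, 36.3, 41.1 and 43.5 across LXR DKO 1 to 3 and 27.8, 26.4 and 24.4 across transgenic 1 to 3. Its transgenic values lay below all of LXR DKO, but no difference of Vcan passed (limma adjusted p = 0.655 for LXR DKO minus WT, 0.638 for transgenic minus LXR DKO and 0.405 for transgenic minus WT). WT 3 was the lowest library. Without it Vcan fell in transgenic libraries against WT (-0.76 ± 0.12, limma adjusted p = 0.00391) and against LXR DKO (-0.60 ± 0.11, limma adjusted p = 0.0483), and the second difference also passed when only these 2 genotypes were fitted (adjusted p = 0.0487).

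Regulators of these genes in the ovulatory response included 18 tested, of which 4 fell and 0 rose in both comparisons with WT. All 4 encode AP-1 subunits. Jun fell by 0.81 in LXR DKO and 0.81 in transgenic libraries (limma adjusted p = 0.00201 and 0.00205), and Jund by 1.21 and 1.24 (limma adjusted p = 0.0109 and 0.011, 0.0508 for the former without LXR DKO 3). Fos dropped by 0.71 and 0.61 (limma adjusted p = 0.00774 and 0.0153), the second call being lost without any 1 transgenic library. Junb fell by 0.59 and 0.62 (limma adjusted p = 0.0462 and 0.0376). Its call in LXR DKO was lost without any 1 library except WT 3, and that in transgenic libraries without WT 1, WT 2, LXR DKO 2 or any transgenic library. Pgr, which encodes the progesterone receptor that induces Adamts1 in granulosa cells, was at most 0.897 RPKM and below the filter. Runx1, Runx2 and Cebpb, other ovulatory transcription factor genes, did not pass in either comparison with WT (limma adjusted p = 0.0823 and 0.306 for Runx1, 0.702 and 0.706 for Runx2, 0.097 and 0.0928 for Cebpb). Without WT 3, Runx1 (-0.91 and -0.59, limma adjusted p = 0.00895 and 0.0239) and Cebpb (-0.83 and -0.82, limma adjusted p = 0.0162 and 0.00914) passed in both.

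**Figure D4:**
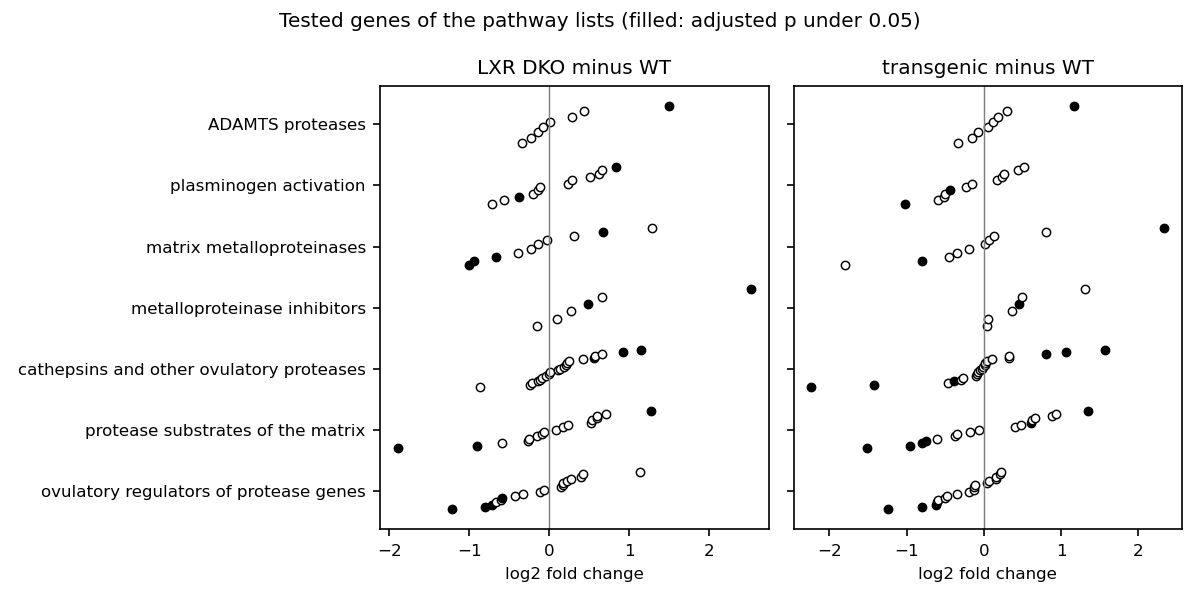
Log2 fold change (x axis) of each tested gene of the 7 lists, members included, in LXR DKO minus WT and transgenic minus WT, 1 row per list and 1 point per gene, filled where the limma adjusted p is under 0.05. The point farthest right in the left panel is A2m (2.52), and Adamts1 is the 1 filled point of the ADAMTS row in both panels.

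The genes whose log2(RPKM + 1) values ran most like those of each member over the 9 libraries were ranked by Pearson's r, as a description, since the libraries share genotypes and contents of other cells. For Adamts1 they were Slc27a4 (0.99), Arl6ip5 (0.98) and Hnrnpul2 (0.98). For Serpine2 they included Gm42786 and 2410004B18Rik (0.97 each). For Plat they were Usp21 (0.98), Emc10 (0.98) and Lzts2 (0.97), and for Plau Prkca (0.99), Morc2a (0.99) and Arfgef1 (0.97). For Timp1 they were Miga2 (0.99), Adgrl1 (0.96) and C8g (0.96), and for Timp3 Haus7 (0.91), Gm47446 (0.88) and Fzd6 (0.87). For Adamts4 they were Tbc1d16 (0.92), Nabp2 (0.91) and Atp6v0c (0.90), and for Adamts9 Cd83 (0.97), Gm37484 (0.92) and Ccdc91 (0.92). No member was among the 3 closest genes of another. The strongest correlations between members over the 9 libraries went both ways. Adamts9 ran with Timp1 (r = 0.71), Plat with Serpine2 (r = 0.67), and Adamts1 with Timp1 (r = 0.63), Plau (r = 0.62) and Adamts9 (r = 0.61). Plat ran against Adamts9 (r = -0.71) and Adamts1 (r = -0.62). All were weaker than those of the closest genes above.

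**Figure D5:**
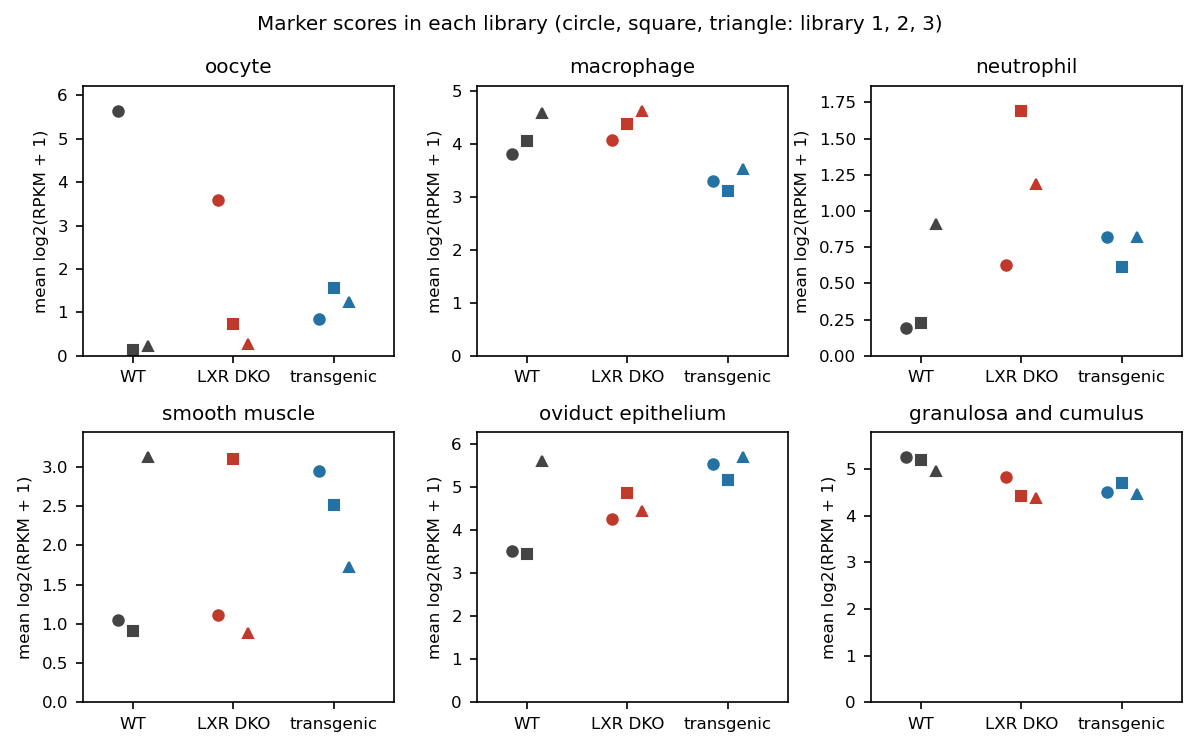
Mean log2(RPKM + 1) (y axes, linear from 0) of 6 marker lists in each of the 9 libraries, circles, squares and triangles for libraries 1, 2 and 3. The oocyte score stands out in WT 1 (5.65) and LXR DKO 1 (3.58), the macrophage score is lowest in the transgenic libraries (3.11 to 3.52), and WT 3 stands apart from the other WT libraries in smooth muscle (3.13) and oviduct epithelium (5.61) scores, the latter within the range of the transgenic libraries (5.17 to 5.70).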

How the data were processed

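The authors deposited 1 matrix of RPKM values, 1 column per library, for 9 libraries. Per the submitters' processing notes, the build was mm10 and the tools, listed without roles, were DESeq2 1.2.8, HTSeq 0.5.4p5, HISAT2 2.1.0 and cutadapt. Annotation, strand setting and multi-mapping rules were not given in the sources used here. Columns were matched to samples by name, and 0 columns of values were left unused. The transgenic columns, spelled with 1 letter unlike the labels, were matched by TG and the replicate number. With exon lengths from GENCODE M21, the deposited RPKM values came back as whole reads (tolerance 0.02) for 37146 of 37863 genes above 0, which gave the read numbers. These reads measure counting precision only.

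Values were analysed as log2(RPKM + 1), a pseudocount of 1, in 1 limma 3.58.1 model (R 4.3.3) of all 9 libraries by genotype, with a mean-variance trend and a filter of 1 RPKM in 3 libraries. The pseudocount shrinks the differences of low genes. The model was run on simulated counts drawn from a common profile, with set changes in LXR DKO only. Those counts lacked the differences in oocyte, oviduct and erythroid RNA between these libraries, so they cannot show how the model copes with them. The members and lists were chosen with earlier results of these data known. Genes named beyond the members were those past the threshold, up to 4 per list and comparison, by size, and the 3 most alike each member. Vcan, Timp2, Adamts2, Pgr, Plg, Runx1, Runx2 and Cebpb were named after their values were seen. Cst3, Cstb and Bsg were named because they are not protease genes. Alternatives were the pseudocount, 2 filters, quantile normalization, voom weights, the variance trend, 2 genotypes per fit, a replicate block and omission of libraries. Some genes that these rules name are not reported here.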

Additional observations from a re-analysis of the deposited data

How the results depend on the processing

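Of 426 values of the members under alternatives, 417 kept their direction and side of the threshold, 5 passed where the reported value did not, 4 changed sign and 0 lost a call. The members past the threshold in LXR DKO against WT numbered 1, and 2 with the stricter filter of 5 RPKM, where fewer genes were tested, and 3 without both oocyte-rich libraries. With 1 library left out they numbered 1 to 3, in transgenic against LXR DKO 0 to 0 and in transgenic against WT 2 to 2. The sign changes were in differences that did not pass: Adamts9 in transgenic minus LXR DKO (-0.25 to 0.016 over omissions), Timp1 in the same comparison (-0.025 to 0.16) and Timp3 in transgenic minus WT (-0.032 with quantile normalization, -0.095 to 0.19 over omissions). The cause was not tested. Of 692 values of other listed genes, 454 kept their call and 238 lost it, with 0 changes of sign.

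Deviations from the group means correlated from -0.29 to 0.67 between same-numbered libraries and from -0.55 to 0.53 between differently numbered ones. The value of 0.67 was that of WT 1 and LXR DKO 1, the libraries rich in oocyte markers. These ranges do not settle whether replicate numbers pair the libraries. With the replicate block the members past the threshold were 1, 0 and 2, and Adamts1 kept its log2 fold changes of 1.50 and 1.17 (limma adjusted p = 0.00112 and 0.0028). Calls over all genes, 1739 in LXR DKO against WT, 19 in transgenic against LXR DKO and 1949 in transgenic against WT, were 1032, 15 and 1096 with no filter, 902, 98 and 1434 with only the 2 genotypes fitted, 1178, 8 and 1513 with the block, and 1101, 17 and 1201 without the oocyte-rich libraries. Quantile normalization gave 31 in transgenic against LXR DKO. With 1 library left out they ranged from 606 to 2082, 4 to 156 and 641 to 3442, highest without WT 3 in each. Depth limits Adamts5 and Plau most, at 127 and 115 reads in their lowest libraries.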
